A study of Mus musculus with 6 samples.

Results

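The genes described here are 10 copper-dependent enzymes of mouse liver, taken by gene symbol from a table of read counts that held 30029 genes. They are the monooxygenases Moxd1 and Pam, the lysyl oxidases Lox, Loxl1, Loxl2, Loxl3 and Loxl4, the copper and zinc superoxide dismutases Sod1 and Sod3, and the amine oxidase Aoc3. All 10 were in the table and all 10 passed the filter on low counts, which left 17606 genes to test, although Moxd1 and Lox reached its minimum in 3 libraries of a group through only the group in which each was the higher. Aoc3 reached that minimum in all 3 libraries of neither group, with 2 labelled knockout and 1 labelled wild type. Polyadenylated RNA of whole liver was sequenced from 3 libraries labelled ATP7B knockout and 3 labelled wild type, all from mice on a high-fat diet for 24 weeks. The labels give no strain, sex, age or allele.

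Copper enters liver cells, is passed to chaperones, and reaches the secretory pathway through copper-transporting ATPases, of which ATP7B is the one of hepatocytes and ATP7A the one of most other cells. Enzymes that are secreted or lie in vesicles, such as the lysyl oxidases, PAM, SOD3 and AOC3, receive copper in that pathway, whereas SOD1 is loaded in the cytosol by the chaperone CCS. Lysyl oxidases cross-link collagen and elastin and are made in liver mainly by fibroblast-like cells. RNA levels say nothing of whether the enzymes held copper.

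Library totals ran from 57886524 to 70965999 counts, and 3 counts, the level taken as the least detectable, corresponded to 0.0339 to 0.0578 CPM (counts in a library scaled to a common total, after TMM normalization). Levels below are in these scaled CPM. The targeted gene did not check the labels: Atp7b stood at 25.9, 27.1 and 23.6 CPM in the libraries labelled knockout, against 17.5, 22.4 and 33.9 CPM in those labelled wild type. Directions below therefore compare libraries by their labels. Hepatocyte markers summed to 63422 to 80219 CPM in the libraries labelled knockout and 63080 to 72545 CPM in those labelled wild type, which is what liver should show. Alb had the highest level of the 12 markers in every library and weighs most in these sums. The log2 fold changes of the markers were positive for 2 and negative for 10, with a median of -0.31. On the leading principal component, with 45.7% of the variance, labelled knockout replicate 2 lay nearest to the libraries labelled wild type, and labelled wild-type replicate 1 stood apart on the next. A whole-liver library cannot tell fewer cells of a type from less RNA per cell.

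Among the 10 enzymes, Moxd1 fell and Pam rose in the livers labelled knockout (edgeR's quasi-likelihood test, adjusted p under 0.05 over all tested genes). The other 8 did not pass, with 7 positive log2 fold changes and a negative one for Sod1. At an unadjusted p under 0.05 there were 7 of the 10, beside 19.7% of all tested genes. Of all tested genes, 1.44% were called, 0.932% as higher and 0.506% as lower. The groups did not overlap for 6 of the 10, namely Pam, Lox, Loxl2, Loxl3 and Sod3 above and Moxd1 below, where 25.7% of all tested genes had groups apart, 13.7% above and 12.0% below. The median log2 fold change of the 10 was 1.06, beside -0.02 over all tested genes. Of all calls 64.8% were higher, and 93.4% with total-count scaling, which moved the median of all genes to 0.31. DESeq2 called 5 of the 10 (Moxd1, Pam, Lox, Loxl1 and Loxl2) with 10.6% of all genes called, and total-count scaling called 4 (Moxd1, Pam, Loxl2 and Sod3) with 5.73%. With no filter 2 of the 10 were called (Pam and Loxl2) and 1.70% of all genes, and with DESeq2 size factors 2 and 1.29%. With a library left out, the calls among the 10 and the share of all genes were 0 and 0.0607% without knockout replicate 1, 3 and 4.96% without knockout replicate 2, and 0 and 0.184% without knockout replicate 3. Among the libraries labelled wild type, they were 2 and 2.07% when replicate 1 was dropped, 0 and 0% when replicate 2 was, and 0 and 0.0217% when replicate 3 was. With the replicate number as a block they were 0 and 0.0227%.

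**Figure D1:**
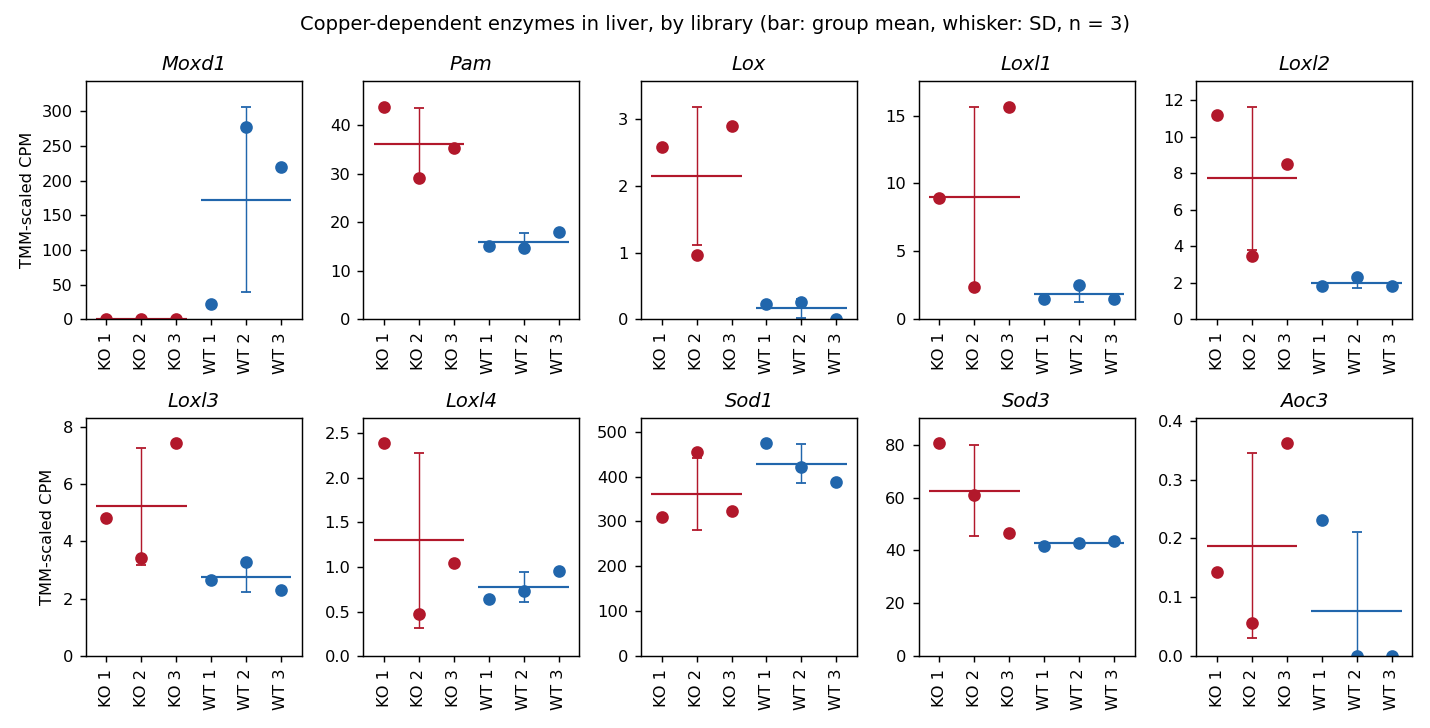
Each panel plots TMM-scaled CPM of an enzyme on a linear axis from 0, with a point per library, the labelled knockout (KO) libraries at the left and the labelled wild-type (WT) libraries at the right, and the group mean with its SD (n = 3). Moxd1 is at the bottom of the axis in the 3 KO libraries, Pam is above 29 CPM in the KO libraries and below 18 CPM in the WT libraries, and KO replicate 2 is the lowest KO library for all 5 lysyl oxidases.

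Per kilobase of the longest coding transcript, which allows levels to be set between genes, Sod1 was the highest in both groups, at 565 ± 125 CPM per kb in the livers labelled knockout and 668 ± 67.1 CPM per kb in those labelled wild type (SD, n = 3 each). In the livers labelled knockout the order went on with Sod3 (16.8 ± 4.58), Pam (8.80 ± 1.81), Loxl1 (2.73 ± 2.01), Loxl2 (1.45 ± 0.741), Loxl3 (1.27 ± 0.496), Lox (0.453 ± 0.219), Loxl4 (0.348 ± 0.264), Aoc3 (0.0426 ± 0.0357) and Moxd1 (0.0284 ± 0.0322), all in CPM per kb. There the levels of Loxl1, Loxl2 and Loxl3, of Lox and Loxl4, and of Aoc3 and Moxd1 lay within their SDs of each other. In the livers labelled wild type Moxd1 was next to Sod1, at 56.0 ± 43.4 CPM per kb, followed by Sod3 (11.4 ± 0.275), Pam (3.87 ± 0.442), Loxl3 (0.669 ± 0.119), Loxl1 (0.562 ± 0.179), Loxl2 (0.374 ± 0.0526), Loxl4 (0.208 ± 0.0444), Lox (0.0347 ± 0.0303) and Aoc3 (0.0175 ± 0.0304). In that group Loxl3 and Loxl1, and Lox and Aoc3, lay within their SDs of each other.

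Moxd1 (ENSMUSG00000020000; GRCm39 chr10:24099415-24178688, plus strand) is named for its likeness to dopamine beta-hydroxylase, and its substrate is not known here. It had 0.196, 0 and 0.0678 CPM in the libraries labelled knockout, against 21.6, 277 and 220 CPM in those labelled wild type. The groups were far apart, with labelled knockout replicate 2 at 0 counts, which allows up to 0.0425 CPM, and labelled wild-type replicate 1 at a level 11.5-fold below the mean of the other wild-type libraries. The fitted log2 fold change was -10.90 ± 1.47 (SE), with a 95% interval of -14.48 to -7.31 and an adjusted p of 0.0453 (edgeR), and no other of the 17606 tested genes had one as large in either direction. The direction was the same under all 11 alternatives. The call was held without labelled wild-type replicate 1 (adjusted p = 0.0121), and lost without any 1 of the knockout libraries (0.139, 0.0562 and 0.133 for replicates 1, 2 and 3), without wild-type replicate 2 (0.180) or 3 (0.137), and with no filter (0.0758).

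Moxd1 is known as a gene of male mouse liver. Of 18 male-biased genes other than Moxd1, 2 fell, 0 rose and 16 did not pass, with 15 of the log2 fold changes below 0 and a median of -1.03. Of all tested genes 0.506% were called lower. Their summed level was 9063 to 20266 CPM in the libraries labelled knockout and 26200 to 40032 CPM in those labelled wild type. Mup7, Mup12 and Mup20 together weigh most in these sums, and none of them passed. Their log2 fold changes were -2.25 for Mup7 (adjusted p = 0.362, edgeR), -2.25 for Mup12 (0.205) and 0.11 for Mup20 (0.856). Cyp2u1, a cytochrome P450, had 14.8, 15.6 and 9.13 CPM in the libraries labelled knockout, against 29.1, 31.0 and 28.3 CPM in those labelled wild type (adjusted p = 0.0462, edgeR). Nudt7, a peroxisomal coenzyme A hydrolase, had 292, 270 and 153 CPM in the libraries labelled knockout, against 615, 708 and 637 CPM in those labelled wild type (adjusted p = 0.0464). Labelled wild-type replicate 1, the low wild-type library for Moxd1, was the lowest of its group for 11 of the 18. Over all 18 the ratio of the mean of the other wild-type libraries to it had a median of 1.34. It was the lowest for 1 of the 13 female-biased genes tested, with a median ratio of 0.34 where a ratio could be formed. How often it was the lowest over all tested genes was not counted.

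Of 16 female-biased genes 13 were tested, with a median log2 fold change of 3.06. Of these 0 fell, 12 did not pass and 1 rose, beside 0.932% of all tested genes. That gene was Fmo2, a flavin monooxygenase, at 31.7, 33.1 and 41.2 CPM in the libraries labelled knockout against 8.15, 6.03 and 8.04 CPM in those labelled wild type. The female-biased genes summed to 70.1 to 167 CPM in the libraries labelled knockout and 16.96 to 32.5 CPM in those labelled wild type. The part of either list in the Moxd1 result was not tested. The male-biased list held 3 calls without labelled knockout replicate 2, 1 without wild-type replicate 1 and 0 without any other library. The female-biased list held 2 without knockout replicate 2, 0 without wild-type replicate 2 and 1 without any other. Of all genes 4.96% were called without knockout replicate 2 and 2.07% without wild-type replicate 1. The male-biased median was -0.59 without knockout replicate 3.

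**Figure D2:**
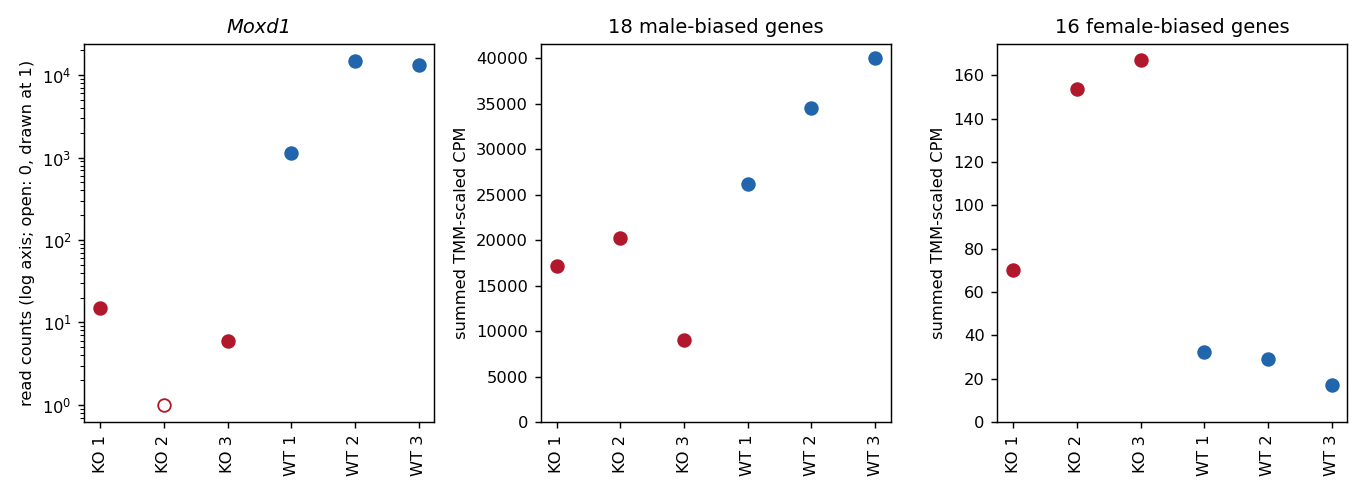
The panels plot, for each labelled knockout (KO) library at the left and each labelled wild-type (WT) library at the right, Moxd1 read counts on a log axis, the summed TMM-scaled CPM of 18 male-biased genes, and that of 16 female-biased genes, both on linear axes from 0. Moxd1 has at most 15 counts in a KO library and at least 1121 in a WT library, and both summed lists also have groups that do not overlap. Mup7, Mup12 and Mup20 together weigh most in the male-biased sums.

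The genes with a pattern most like that of Moxd1 were C9, the last component of the complement attack complex (Pearson's r = 0.997), Ints7, an Integrator subunit (0.997), and Gna14, a G protein alpha subunit (0.997), each on log2 CPM over the same 6 libraries of 2 groups and among 13392 genes of at least 1 CPM. C9 had 501, 391 and 431 CPM in the libraries labelled knockout, against 724, 959 and 971 CPM in those labelled wild type. With 6 libraries, 387 genes had an r over 0.9 with Moxd1, so the likeness singles out none of them.

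Pam (ENSMUSG00000026335; GRCm39 chr1:97722839-98023371, minus strand) makes the C-terminal amide of peptide hormones. It had 43.9, 29.1 and 35.4 CPM in the libraries labelled knockout, against 15.1, 14.6 and 17.97 CPM in those labelled wild type. The lowest knockout library was above the highest wild-type library, and the mean was 36.1 ± 7.41 CPM in the livers labelled knockout and 15.9 ± 1.81 CPM in those labelled wild type (SD, n = 3 each). Pam rose 2.27-fold (log2 fold change 1.18 ± 0.17 (SE), 95% interval 0.79 to 1.58, adjusted p = 0.0416, edgeR). The direction was the same under all 11 alternatives and the log2 fold change ran from 1.02 to 1.35 with a library left out. The call was held without wild-type replicate 1 (adjusted p = 0.0439) or knockout replicate 2 (0.0152), and lost without wild-type replicate 2 (0.180) or 3 (0.133) and without knockout replicate 1 (0.117) or 3 (0.0614).

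Precursors of amidated peptides and prohormone-processing enzymes gave no call beside Pam, where edgeR called 1.44% of all tested genes. Of 18 such genes 13 were in the table and 7 were tested, and 0 of the 7 passed edgeR's test. There was 1 at an unadjusted p under 0.05 and 1 called by DESeq2, beside 19.7% and 10.6% of all tested genes. The peptide precursors Gal, Calcb, Cck and Vip had 0 counts in all 6 libraries. Cpe, a carboxypeptidase of the regulated secretory pathway, had 2.73, 1.38 and 1.47 CPM in the libraries labelled knockout, against 0.270, 0.282 and 0.628 CPM in those labelled wild type (log2 fold change 2.23, adjusted p = 0.0627). Pcsk7, a proprotein convertase, stood at -0.25 on the log2 scale (adjusted p = 0.303). The patterns most like that of Pam were those of Trip10, an adaptor of the actin cytoskeleton (r = 0.997), the chemokine receptor Ccr1 (0.993) and the galactosyltransferase Ggta1 (0.992), again over 6 libraries. An r over 0.9 with Pam was found for 539 of 13392 genes.

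The promoter windows of Moxd1, Pam and Sod1 are shown because Moxd1 and Pam are the enzymes called and Sod1 the most abundant. RefSeq gave such windows, from 250 bases before to 50 after the start site on GRCm38.p6, for 4 of the 10 genes, the fourth being Loxl4. Capitals mark matches on either strand, which may overlap, to 7 motifs.
Moxd1 chr10:24223267-24223566, plus strand: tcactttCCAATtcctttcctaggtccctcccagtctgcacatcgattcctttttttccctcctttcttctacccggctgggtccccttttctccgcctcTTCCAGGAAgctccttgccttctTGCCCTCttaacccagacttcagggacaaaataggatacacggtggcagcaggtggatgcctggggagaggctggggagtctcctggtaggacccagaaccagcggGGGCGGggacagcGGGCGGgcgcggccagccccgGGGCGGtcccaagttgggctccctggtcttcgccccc
Pam chr1:98095597-98095896, minus strand: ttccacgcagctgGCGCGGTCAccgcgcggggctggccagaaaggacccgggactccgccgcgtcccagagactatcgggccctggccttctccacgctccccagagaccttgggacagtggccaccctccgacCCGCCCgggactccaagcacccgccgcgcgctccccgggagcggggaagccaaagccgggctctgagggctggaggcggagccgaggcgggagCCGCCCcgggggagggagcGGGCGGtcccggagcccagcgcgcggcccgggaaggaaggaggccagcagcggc
Sod1 chr16:90220512-90220811, plus strand: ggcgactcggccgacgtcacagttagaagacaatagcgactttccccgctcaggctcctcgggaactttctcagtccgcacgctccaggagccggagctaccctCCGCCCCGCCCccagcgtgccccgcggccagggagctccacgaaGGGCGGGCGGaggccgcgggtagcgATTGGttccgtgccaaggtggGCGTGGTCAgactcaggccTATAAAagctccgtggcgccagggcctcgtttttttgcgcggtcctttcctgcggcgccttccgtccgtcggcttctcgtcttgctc

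Each motif is given with its letters and the share of all 32851 windows of 300 bases that hold it. A STAT site was taken as TTCNNNGAA, found in 8.30% of windows. The TATA box TATAAA was in 13.6% of them. The CCAAT box was in 37.4%. The GC box GGGCGG was in 35.7%. The AP-1 site TGANTCA was in 7.81%. The metal response element core TGCNCNC was in 51.0%. The antioxidant response element core TGACNNNGC was in 12.4%.

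Moxd1 held a STAT match that starts 150 bases before the start site, 3 GC boxes, a CCAAT box and a metal response core. This Pam window, the more upstream of 2 listed starts, held 3 GC boxes and an antioxidant core but none of the other 5 sets of letters. Sod1 held 4 GC boxes, a TATA box, a CCAAT box and an antioxidant core. G and C made up 61.7% of the Moxd1 window, 76.3% of the Pam window and 66.7% of the Sod1 window, beside a median of 52.7% over all windows. These are matches of letters and say nothing of which factors bind.

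The lysyl oxidases all had higher mean levels in the livers labelled knockout, and none of the 5 passed edgeR's test, with 4 of the 5 at an unadjusted p under 0.05 and 3 (Lox, Loxl1 and Loxl2) called by DESeq2. Of all tested genes, 19.7% had such a p and DESeq2 called 10.6%. What the enzymes share is a short stretch whose histidines bind copper. The coding bases of that stretch are shown because they make the genes a family, with the histidine codons in capitals, from GENCODE vM21 transcripts on GRCm38. The stretch is interrupted by an intron in each gene.
Loxl1 chr9:58293720-58294381, minus strand, exons 3 and 4 of 7: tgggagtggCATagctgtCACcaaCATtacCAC
Loxl2 chr14:69682316-69689037, plus strand, exons 10 and 11 of 14: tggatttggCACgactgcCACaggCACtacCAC
Loxl3 chr6:83049995-83050125, plus strand, exons 10 and 11 of 14: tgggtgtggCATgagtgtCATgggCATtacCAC
Loxl4 chr19:42598807-42599899, minus strand, exons 11 and 12 of 15: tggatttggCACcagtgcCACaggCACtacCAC

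Of 21901 coding genes, the 5 that hold the signature were the 5 lysyl oxidases. Loxl2 and Loxl4 shared 31 of the 33 bases, Lox and Loxl1 32, and Loxl1 and Loxl4 21. The longest run of identical bases between transcripts of any pair of the 10 enzymes was 32, between Lox and Loxl1, which is shorter than the average library insert the labels give.

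Lox (ENSMUSG00000024529; GRCm39 chr18:52649139-52662939), the founding member, had 198, 68 and 256 counts in the libraries labelled knockout, against 12, 14 and 0 counts in those labelled wild type. In CPM these were 2.59, 0.964 and 2.89 in the libraries labelled knockout, against 0.231, 0.263 and 0 in those labelled wild type, where 0 counts allow up to 0.0496 CPM. The groups did not overlap, and labelled knockout replicate 2 was 3.00-fold below replicate 3. The log2 fold change was 3.71 ± 0.96 (SE, 95% interval 1.49 to 5.94) and did not pass (adjusted p = 0.0872, edgeR). The nearest patterns over the 6 libraries were those of Cx3cr1, a chemokine receptor of monocytes and macrophages (r = 0.993), the transcriptional co-repressor Ctbp2 (0.991) and Top2a, a topoisomerase of dividing cells (0.990). With Lox, 317 of 13392 genes had an r over 0.9, so these are not singled out.

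Loxl1 (ENSMUSG00000032334; GRCm39 chr9:58195021-58220469), which acts on elastic fibres, had 8.93, 2.40 and 15.7 CPM in the libraries labelled knockout, against 1.52, 2.53 and 1.505 CPM in those labelled wild type. Its groups overlapped, because labelled knockout replicate 2 lay below wild-type replicate 2, and the knockout libraries spread over 6.54-fold. The log2 fold change was 2.28 ± 0.64 (adjusted p = 0.111). Without knockout replicate 2 it was 2.76 and passed (adjusted p = 0.0163), without knockout replicate 3 it was 1.61 (0.201), and without any other library it did not pass (0.228 to 0.282).

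Loxl2 (ENSMUSG00000034205; GRCm39 chr14:69846517-69933283), a cross-linker of basement membrane collagen, had 11.2, 3.45 and 8.49 CPM in the libraries labelled knockout, against 1.85, 2.31 and 1.80 CPM in those labelled wild type. The groups did not overlap. The log2 fold change was 1.96 ± 0.41 (95% interval 1.01 to 2.90), just beyond the threshold (adjusted p = 0.0563). It passed without knockout replicate 2 (2.34, adjusted p = 0.0129), with total-count scaling (0.0341) and with no filter (0.0370). The antisense gene Gm27177 overlaps it by 35685 bases and had 243, 309 and 230 counts in the libraries labelled knockout, against 153, 127 and 86 counts in those labelled wild type. The library kit marked strand, but whether counting used it is unknown here, and reads of the pair may have been mixed.

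Loxl3 (ENSMUSG00000000693; GRCm39 chr6:83011154-83029543) had 4.82, 3.42 and 7.42 CPM in the libraries labelled knockout, against 2.66, 3.27 and 2.298 CPM in those labelled wild type. The groups stood apart by a narrow gap (log2 fold change 0.93 ± 0.32, adjusted p = 0.164). It overlaps Htra2 on the other strand by 1297 bases, a mitochondrial protease gene with 1199, 1375 and 1692 counts in the libraries labelled knockout against 930, 701 and 949 in those labelled wild type. Loxl4 (ENSMUSG00000025185; GRCm39 chr19:42582421-42601252) had 2.39, 0.468 and 1.04 CPM in the libraries labelled knockout, against 0.636, 0.732 and 0.959 CPM in those labelled wild type. These groups overlapped, with knockout replicate 2 the lowest of all 6 libraries, and the log2 fold change of 0.74 ± 0.59 did not pass (adjusted p = 0.548) and was -0.04 without knockout replicate 1.

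The family total was 7.18, 2.54 and 9.05 CPM per kb in the libraries labelled knockout, against 1.68, 2.25 and 1.61 CPM per kb in those labelled wild type. Lox made up 7.60%, 8.02% and 6.74% of that total in the libraries labelled knockout, against 2.91%, 2.46% and 0% in those labelled wild type. Loxl3 made up 16.4%, 32.9% and 20.03% in the libraries labelled knockout, against 38.7%, 35.4% and 34.8% in those labelled wild type, so that Loxl3 was the leading member in every wild-type library and Loxl1 was in knockout replicates 1 and 3. These shares, chosen after the values were seen, do not depend on library scaling. They are given as a description, since an exact two-sided permutation test of 3 libraries against 3 cannot give a p below 0.1.

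**Figure D3:**
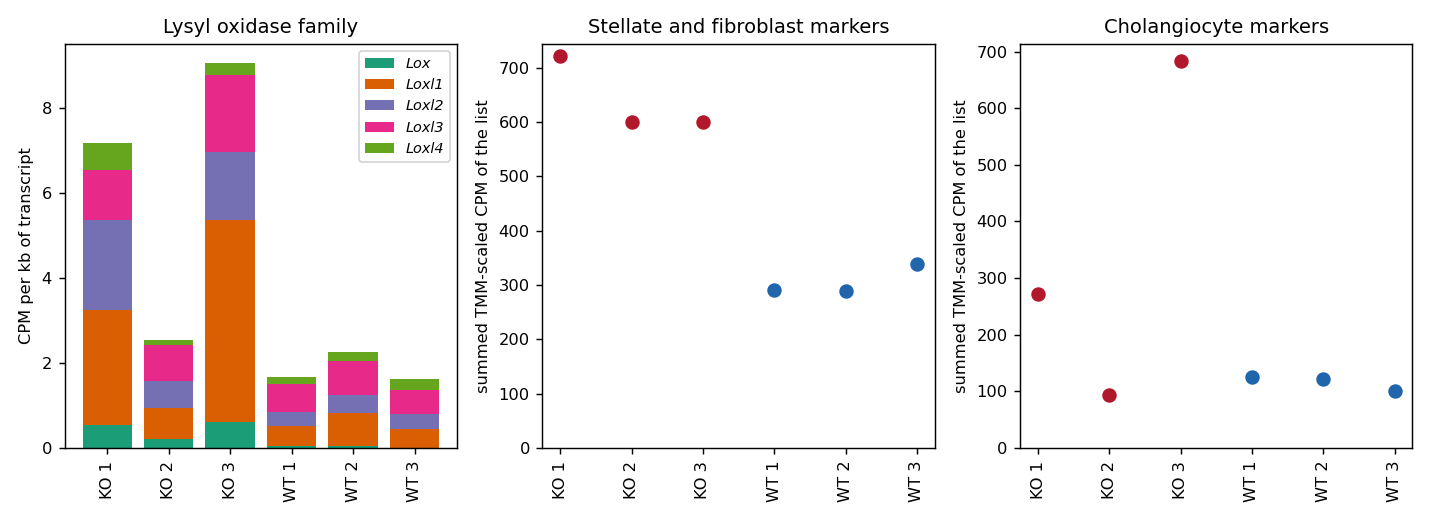
The left panel stacks the levels of the 5 lysyl oxidases in CPM per kb of the longest coding transcript for each labelled knockout (KO) library at the left and each labelled wild-type (WT) library at the right, and the other panels plot the summed TMM-scaled CPM of stellate cell and fibroblast markers and of cholangiocyte markers. KO replicate 2 has a family total of 2.54, near the WT replicate 2 total of 2.25, and a cholangiocyte sum of 93.7 CPM, while its stellate sum of 600 CPM is above every WT library. Dcn weighs most in the stellate sums and Spp1 in the cholangiocyte sums.

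Of 20 substrates and partners of the lysyl oxidases 19 were tested, and 2 rose, 0 fell and 17 did not pass, with 16 at an unadjusted p under 0.05 and a median log2 fold change of 1.47. Of all tested genes, 0.932% were called higher and 19.7% had an unadjusted p under 0.05. For 12 of the 19 every library labelled knockout was above every library labelled wild type, beside 13.7% of all tested genes, and for 2, Fn1 and Bmp1, every one was below. DESeq2 called 14 higher and 2 lower, where it called 10.6% of all genes. The summed level of the list was 1337 to 2379 CPM in the libraries labelled knockout and 2015 to 2495 CPM in those labelled wild type. Fn1 had the highest level of the list in every library and weighs most in these sums. Of the 19 log2 fold changes, 16 were positive and 3 negative. Efemp2, which helps load lysyl oxidase on elastic fibres, had 9.61, 7.01 and 10.9 CPM in the libraries labelled knockout, against 3.33, 3.62 and 2.98 CPM in those labelled wild type (log2 fold change 1.47, adjusted p = 0.0447, edgeR). Fbn1, the microfibril protein fibrillin, had 10.9, 4.76 and 12.1 CPM in the libraries labelled knockout, against 1.68, 2.25 and 2.84 CPM in those labelled wild type (2.03, adjusted p = 0.0492).

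Col1a1, Bmp1 and Fn1 are named here after their values were seen. Col1a1, a chain of the main fibrillar collagen, had 137, 27.0 and 74.1 CPM in the libraries labelled knockout, against 13.2, 19.1 and 9.51 CPM in those labelled wild type (2.51, adjusted p = 0.0911). Bmp1, a protease that frees the active form of lysyl oxidase, lay below in the livers labelled knockout, with 85.2, 94.2 and 69.2 CPM in the libraries labelled knockout against 125, 150 and 151 CPM in those labelled wild type (-0.78, adjusted p = 0.0545). Fn1, fibronectin, was below too, with 1371, 853 and 743 CPM in the libraries labelled knockout against 1604, 1964 and 2094 CPM in those labelled wild type (-0.93, adjusted p = 0.111). The list of substrates and partners held 15 calls without labelled knockout replicate 2, where 4.96% of all genes were called. It held 1 without wild-type replicate 1 (2.07%) and 0 without any other library.

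Of all tested genes 0.932% were called higher. Of 12 markers of stellate cells and fibroblasts tested, 3 rose, 0 fell and 9 did not pass, with 12 positive log2 fold changes and a median of 0.93. The 3 were the matrix proteoglycan Dcn (log2 fold change 1.29, adjusted p = 0.0380), the collagen Col14a1, which decorates fibrils (1.18, 0.0412), and Lum, another proteoglycan (2.43, 0.0473). The markers summed to 600 to 722 CPM in the libraries labelled knockout and 289 to 338 CPM in those labelled wild type. Within the libraries labelled knockout their sum was 722, 600 and 600 CPM, where the lysyl oxidase total was 7.18, 2.54 and 9.05 CPM per kb. Dcn had the highest level of the list in every library and weighs most in these sums. Members differed in their order over these libraries. Lum had 46.3, 22.3 and 69.6 CPM in them and Ecm1 had 131, 136 and 46.4 CPM, both named after their values were seen. The list held 6 calls when knockout replicate 2 was left out, where 4.96% of all genes were called. It held 2 without wild-type replicate 1 (2.07%), 1 without knockout replicate 3 (0.184%) and 0 without any other library.

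Among macrophage markers 1 of 12 rose, Cd68 (log2 fold change 1.55, adjusted p = 0.0390), beside 0.932% of all tested genes. The list summed to 902 to 1017 CPM in the libraries labelled knockout and 436 to 806 CPM in those labelled wild type. Clec4f, Marco and Timd4, markers of resident Kupffer cells named after their values were seen, were the 3 of the list with negative log2 fold changes. None of them passed, at -0.91 for Clec4f (adjusted p = 0.496), -1.39 for Marco (0.300) and -1.33 for Timd4 (0.255). The other 9 were positive, among them Cd5l and Adgre1 (0.92, adjusted p = 0.0510), so that direction is of these 3 genes only. The macrophage list held 5 calls without wild-type replicate 1 (2.07% of all genes called) or knockout replicate 2 (4.96%), and 0 without any other library. Cholangiocyte markers had 0 of 11 called by edgeR, 5 at an unadjusted p under 0.05 and 4 called by DESeq2. They summed to 271, 93.7 and 684 CPM in the libraries labelled knockout, against 125, 121 and 100 CPM in those labelled wild type. Most of each sum was Spp1, with 232, 74.5 and 581 CPM in the libraries labelled knockout, against 103, 90.4 and 74.8 CPM in those labelled wild type. The cholangiocyte list held 5 calls without knockout replicate 2, where 4.96% of all genes were called, and 0 without any other library. The 2 smallest p of that list belonged to St14 (log2 fold change 3.73, adjusted p = 0.0712) and Cldn4 (5.05, 0.112). Endothelial markers had 0 of 12 called by edgeR, 4 at an unadjusted p under 0.05 and 1 called by DESeq2, with Vwf at 1.38 (adjusted p = 0.0676) and Pecam1 at 0.71 (0.189). Their sums were 186 to 303 CPM in the libraries labelled knockout and 191 to 247 CPM in those labelled wild type. Over all tested genes, 19.7% had an unadjusted p under 0.05 by edgeR and DESeq2 called 10.6%. The part of these cell types in the lysyl oxidase levels was not tested.

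Sod1 (ENSMUSG00000022982; GRCm39 chr16:90017642-90023217, plus strand) removes superoxide in the cytosol. It had 309, 454 and 323 CPM in the libraries labelled knockout, against 474, 422 and 389 CPM in those labelled wild type. The groups overlapped, since labelled knockout replicate 2 was above wild-type replicates 2 and 3. The log2 fold change was -0.24 ± 0.20 (95% interval -0.70 to 0.22, adjusted p = 0.566), and it turned to 0.07 with total-count scaling. Its gene overlaps Scaf4, on the other strand, by 650 bases. Relative to the median of all genes its log2 fold change was -0.22 with TMM and -0.24 with total counts. The nearest patterns were those of Stard10, a lipid transfer protein (r = 0.994), Ttr, the plasma carrier transthyretin (0.991), and Lsm12, an RNA-binding protein (0.987), over 6 libraries. An r over 0.9 with Sod1 was found for 348 of 13392 genes. Ttr is also among the hepatocyte markers, of which 0 of 12 were called by edgeR, with 1 at an unadjusted p under 0.05 and 1 called by DESeq2. Among those markers Serpina1a stood at -0.72 (adjusted p = 0.151) and Tat at -1.0005 (0.373). EdgeR called 1.44% of all tested genes, 19.7% had an unadjusted p under 0.05 and DESeq2 called 10.6%.

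Sod3 (ENSMUSG00000072941; GRCm39 chr5:52521133-52528760, plus strand) is the secreted dismutase, held at cell surfaces and in matrix. It had 80.6, 60.9 and 46.5 CPM in the libraries labelled knockout, against 41.6, 42.9 and 43.6 CPM in those labelled wild type. The groups did not overlap, with knockout replicate 3 only slightly above the wild-type libraries, whose SD was 1.03 CPM. The log2 fold change was 0.55 ± 0.19 (95% interval 0.12 to 0.99) and did not pass (adjusted p = 0.160, edgeR), except with total-count scaling (0.87, adjusted p = 0.0358).

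Per kilobase Sod1 exceeded Sod3 by 22.4-fold, 43.5-fold and 40.5-fold in the libraries labelled knockout, against 66.5-fold, 57.3-fold and 52.0-fold in those labelled wild type. The groups did not overlap in this ratio, which was chosen after its values were seen and does not depend on scaling, and no test is read for it either. The coding stretches around the copper-binding histidines that Sod1 and Sod3 share are shown to set the pair side by side, with the histidine codons in capitals (GENCODE vM21, GRCm38).
Sod1 chr16:90222840-90222872, plus strand, exon 2 of 5: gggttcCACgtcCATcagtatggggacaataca
Sod3 chr5:52368336-52368368, plus strand, exon 2 of 2: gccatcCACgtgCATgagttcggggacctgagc

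The same signature was found in 4 of 21901 coding genes, namely Sod1, Sod3, Ccs and Recql4, so it is not limited to the dismutases. Ccs is the chaperone that resembles Sod1 and loads it with copper. Ccs, named after its values were seen, had 86.3, 121 and 103 CPM in the libraries labelled knockout, against 143, 132 and 135 CPM in those labelled wild type. The groups did not overlap and the log2 fold change of -0.40 did not pass (adjusted p = 0.199, edgeR). Of 16 other enzymes that handle superoxide and peroxide, 0 were called by edgeR or by DESeq2, with 2 at an unadjusted p under 0.05 by edgeR. Those were Gpx3, the secreted glutathione peroxidase (log2 fold change 1.81, adjusted p = 0.166), and Srxn1, which repairs peroxiredoxins (0.52, 0.167). The list median was -0.01, beside -0.02 over all tested genes. EdgeR called 1.44% of all tested genes, DESeq2 called 10.6%, and 19.7% had an unadjusted p under 0.05 by edgeR.

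Aoc3 (ENSMUSG00000019326; GRCm39 chr11:101221431-101232764), an amine oxidase of adipocytes, smooth muscle and vessels, was at the edge of detection. It had 11, 4 and 32 counts in the libraries labelled knockout, against 12, 0 and 0 counts in those labelled wild type, where 0 allows up to 0.0563 and 0.0496 CPM. The groups overlapped and the log2 fold change of 1.30 ± 1.42 did not pass (95% interval -1.95 to 4.56, adjusted p = 0.683). It was 0.40 without knockout replicate 3 and 6.73 without wild-type replicate 1 (adjusted p = 0.162), where the remaining wild-type libraries are both at 0 and the fitted value is no bound. Of 12 markers of smooth muscle and adipocytes 7 were tested and 0 called by edgeR, with 4 at an unadjusted p under 0.05 and 4 called by DESeq2. Over all tested genes these shares were 19.7% and 10.6%. Lmod1, a smooth muscle gene, had an adjusted p of 0.0566 with 0 counts in all libraries labelled wild type, and Tagln, another, stood at 1.29 on the log2 scale (adjusted p = 0.0579). The list held 2 calls without labelled knockout replicate 2 (4.96% of all genes called), 1 without wild-type replicate 1 (2.07%) and 0 without any other library. The adipocyte hormones Lep and Retn had 0 counts in all 6 libraries.

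**Figure D4:**
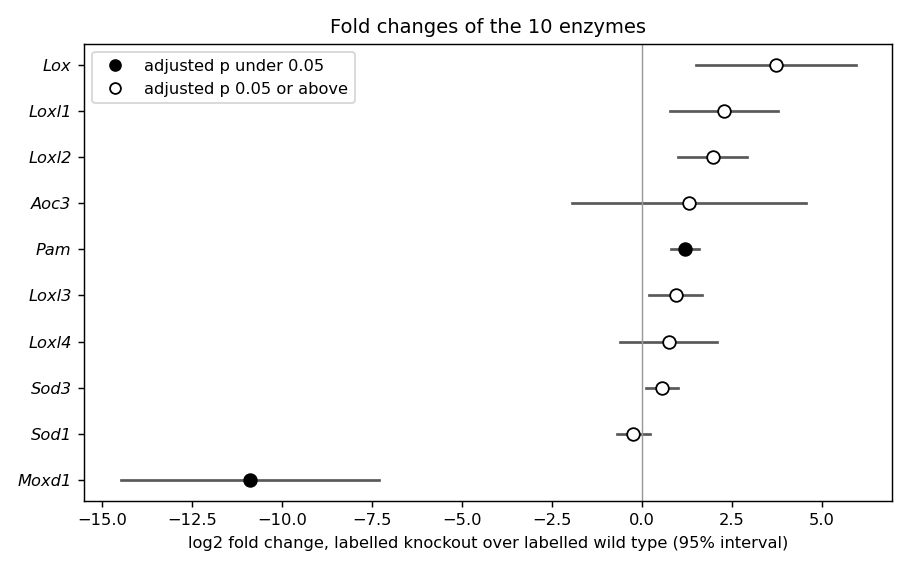
The plot gives, on the horizontal axis, the log2 fold change of the livers labelled knockout over those labelled wild type for each enzyme, with its 95% interval, and filled points for adjusted p under 0.05 (edgeR). Moxd1 at -10.90 and Pam at 1.18 are filled, the intervals of Lox, Loxl1, Loxl2, Loxl3 and Sod3 lie above 0, and those of Aoc3, Loxl4 and Sod1 include 0.

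Genes that bring copper to these enzymes gave no call, where edgeR called 1.44% of all tested genes. Of 13 genes of copper uptake, chaperoning, export and storage, 0 passed edgeR's test. There were 3 at an unadjusted p under 0.05 and 2 called lower by DESeq2, beside 19.7% and 10.6% of all tested genes. Slc31a1, the copper importer of the cell surface, had 141, 166 and 120 CPM in the libraries labelled knockout, against 211, 206 and 202 CPM in those labelled wild type (log2 fold change -0.54, adjusted p = 0.112). Mt2, a metallothionein, had 98.3, 107 and 154 CPM in the libraries labelled knockout, against 348, 184 and 181 CPM in those labelled wild type (-0.99, adjusted p = 0.119). Groups lay apart for both of them, with the libraries labelled knockout below, as for 12.0% of all tested genes.

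Over all tested genes edgeR called 1.44%, 19.7% had an unadjusted p under 0.05 and DESeq2 called 10.6%. Of 12 other copper enzymes and copper-binding proteins 10 were in the table and 7 were tested. EdgeR called 0 of the 7, with 1 at an unadjusted p under 0.05 and 1 called by DESeq2. That was Heph, a ferroxidase that acts in iron export, with 1.54, 1.25 and 3.27 CPM in the libraries labelled knockout against 0.482, 0.563 and 0.331 CPM in those labelled wild type (log2 fold change 2.14, adjusted p = 0.0628). Cp, ceruloplasmin, the main copper protein of plasma, had 1433, 976 and 1086 CPM in the libraries labelled knockout, against 1634, 1597 and 1283 CPM in those labelled wild type (-0.37, adjusted p = 0.415), and these groups overlapped.

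**Figure D5:**
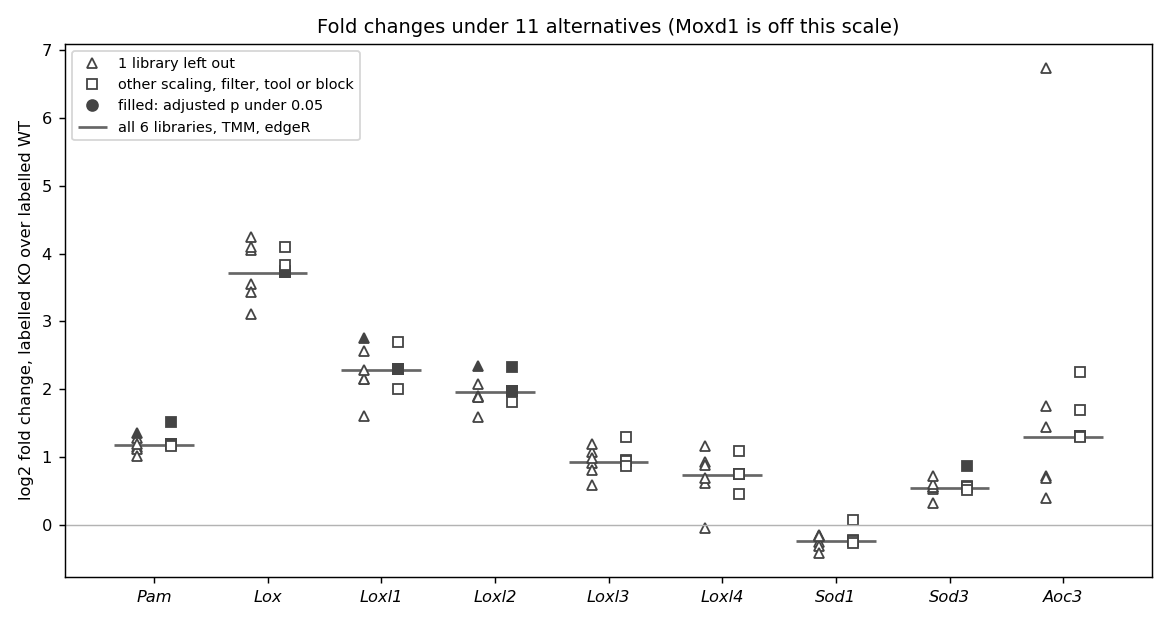
Each column gives the log2 fold change of an enzyme, the livers labelled knockout over those labelled wild type, under 11 alternatives, with triangles for a library left out, squares for another scaling, filter, tool or block, filled symbols for adjusted p under 0.05 and a line for the value with all 6 libraries. Pam, Lox, Loxl1, Loxl2, Loxl3, Sod3 and Aoc3 stay above 0 throughout, Loxl4 touches -0.04 without knockout replicate 1, and Sod1 is at 0.07 with total counts.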

How the data were processed

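The deposited table held raw whole-number read counts per gene, with a column per library, as checked on its values. The submitters' processing notes name GRCm39 and edgeR without roles. The aligner, counter, annotation and use of strand are not given in the sources used here. The labels do not tie libraries to separate animals, and the p-values here reflect only how these samples vary, which may be technical. Chi-square per gene was at least 63.0 for every pair of replicates, beyond counting noise, and each library was counted once.

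The 10 genes and all lists were chosen with earlier results of these data known. Genes were kept by filterByExpr (17606 of 30029 in the table, where 2283 had no count), scaled by TMM and fitted by robust quasi-likelihood in edgeR 4.0.16 (with limma 3.58.1 under R 4.3.3), with Benjamini-Hochberg adjustment over all tested genes and calls at an adjusted p under 0.05. The SE came from the F statistic. Alternatives were DESeq2 size factors, total counts, no filter, DESeq2 1.42.0, the replicate number as a block and each library left out. Same-numbered libraries did not deviate together (r of -0.046 to -0.004). The fit was tested on simulated data. Named were the 10 genes, from each list up to 4 called members by smallest p or up to 2 where none was called, and for Moxd1, Lox, Pam and Sod1 the 3 most correlated genes. Intervals and floors cover counting error and the modelled spread only, since amplified reads are not independent molecules. Promoters are from RefSeq (GRCm38.p6), and transcript lengths and coding stretches from GENCODE vM21 (GRCm38), matched by gene. No coordinates were converted.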

Additional observations from a re-analysis of the deposited data

How the results depend on the processing

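Moxd1, Pam, Lox, Loxl1, Loxl2, Loxl3, Sod3 and Aoc3 kept their direction under all 11 alternatives. The log2 fold change of Sod1 turned to 0.0673 with total counts. With a library left out, Loxl4 ran from -0.0399 (without KO_HFD replicate 1) to 1.17, and Atp7b from -0.143 (without WT_HFD replicate 1, and -0.0140 without replicate 2) to 0.354. The count of genes called, 253, was 1008 with total counts, 473 with no filter, 1867 with DESeq2 and 4 with the replicate block, and ran from 0 to 912 with a library left out. The 0, without WT_HFD replicate 2, stood beside 2424 genes at an unadjusted p under 0.05. Of the 10 enzymes, 2 were called, 4 with total counts, 5 with DESeq2 and 0 with the replicate block (6 at an unadjusted p under 0.05), and 0 to 3 with a library left out. With no filter the 2 called were Pam and Loxl2. Replicate numbers are only numbers here, so the block is no paired result. Aoc3 ran from 0.40 to 6.73 with a library left out. Aoc3, Lox and Moxd1 had libraries at 0 counts. The causes of these shifts were not tested.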
